A study of Bos taurus with 12 samples.

Results

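Transcript levels of bovine chromaffin cells in culture were compared directly between a 24 h treatment with 10 nM of the cytokine interleukin-6 (IL6) and a 6 h treatment with 10 µM histamine. The comparison rests on 6 of the 12 arrays of the series, 3 for IL6 and 3 for histamine, chosen by their sample titles. Another 3 arrays of untreated cells served to show which treatment had moved a gene, and the 3 interferon alpha arrays (1 nM, 24 h) entered no comparison, but share in the estimate of the spread and in mean levels over all 12 arrays. Agent, dose and time all differ between the IL6 and histamine groups, so a difference between them cannot be assigned to any of the 3. The labels used here do not say how long the untreated cells were cultured. Chromaffin cells are endocrine cells of the adrenal medulla that secrete adrenaline and noradrenaline, and the cultures came from adrenal glands with no count of animals given. The submitters call the triplicates technical, so each p-value below measures only the spread between these arrays, not that between cultures or animals.

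As background, IL6 is a cytokine that binds its receptor together with the shared subunit gp130 and activates Janus kinases and the transcription factor STAT3, whose targets include its own inhibitor SOCS3. Histamine acts on chromaffin cells mainly through the H1 receptor, which couples to phospholipase C, releases stored calcium, depolarises the cell and triggers secretion of catecholamines and peptides. Calcium and cyclic AMP signals of this kind are known to induce immediate early genes and genes for neuropeptides. Chromaffin cells store adrenaline or noradrenaline in granules together with chromogranins and enkephalin.

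Values are log2 expression levels as deposited, and every difference is IL6 minus histamine on the log2 scale, so a positive value means a higher level after IL6. A probe set was called when its adjusted p from limma was under 0.05 and its fold was at least 1.5. A gene with several probe sets is given by the brightest. Where the lower of a pair of means lies under the first quartile of all arrays (5.02 to 5.11), the fold is given as "at least". Levels of different genes are not compared, since probes differ in their brightness.

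The cells carried the transcripts that define them: TH, the rate-limiting enzyme of catecholamine synthesis, lay between 13.38 and 13.76 on the untreated, IL6 and histamine arrays, and CHGA, chromogranin A, between 13.41 and 13.65. Both are near the top of the range, where the highest value of an array was 14.01 to 14.14, so differences of such genes may be compressed. Arrays of the same group correlated at 0.993 to 0.998 across probe sets. The IL6 arrays were less alike in their hypoxia genes. Averaged over 28 measured genes of glycolysis and the hypoxia response, the level relative to untreated cells was 0.07, 0.61 and 0.94 in IL6 repeats 1, 2 and 3, against 0.16, 0.19 and 0.21 in the histamine repeats. Interferon alpha repeat 3 stood apart in the same way, at 0.66. Without these 3 arrays, named the 3 uneven arrays below, IL6 repeat 1 was the only IL6 array left. Values under that setting rest on 1 IL6 array, without a spread between IL6 repeats, and are given as effect sizes only. They stand beside the named genes whose call between IL6 and histamine differed there.

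Of 24016 probe sets, 1488 (6.2%) were called between IL6 and histamine, 650 (2.71%) higher after IL6 and 838 (3.49%) higher after histamine. Among 9155 genes with a symbol, 685 (7.48%) were called, 293 (3.2%) higher after IL6 and 392 (4.28%) higher after histamine. These shares of all genes are the background for each list count below. The 3 IL6 arrays and the 3 histamine arrays did not overlap in 1479 of the 1488 called probe sets, in 42% of all probe sets tested and in 49.6% of all genes. A difference of at least 2-fold was reached by 333 called probe sets and a difference of at least 4-fold by 42. The median difference over all genes was 0. Against untreated cells, 573 probe sets (2.39%) were called after IL6 and 1369 (5.7%) after histamine. Among genes, 253 (2.76%) were called after IL6, 158 (1.73%) higher and 95 (1.04%) lower, and 639 (6.98%) after histamine, 345 (3.77%) higher and 294 (3.21%) lower. These comparisons share the untreated arrays. Of the 392 genes higher after histamine, the untreated mean lay nearer to the IL6 mean in 313 and nearer to the histamine mean in 79. Of the 293 genes higher after IL6, it lay nearer to histamine in 135 and nearer to IL6 in 158. Without IL6 repeats 2 and 3 and interferon alpha repeat 3, only IL6 repeat 1 remained, so the number of called probe sets is not given for that setting.

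**Figure D1:**
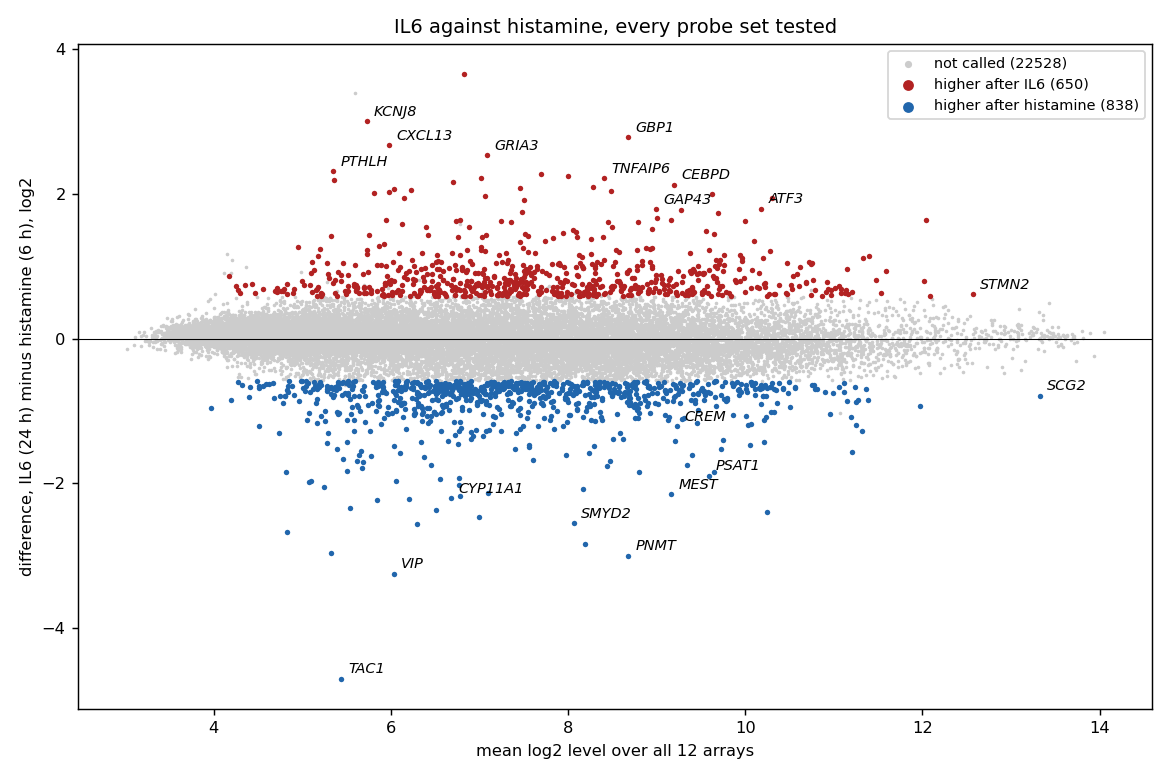
Difference between IL6 (24 h) and histamine (6 h) on the log2 scale against the mean log2 level over all 12 arrays, with a point for each of 24016 probe sets. Red points are the 650 probe sets called higher after IL6, blue points the 838 called higher after histamine and grey points the rest; TAC1, at -4.70, lies farthest from 0.

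The largest difference of all probe sets belonged to a neuropeptide gene. TAC1, the precursor of substance P, had levels of 4.29, 4.24 and 4.41 on the IL6 arrays and 9.07, 8.88 and 9.10 on the histamine arrays. The untreated arrays, at 4.33, 4.27 and 4.19, lay with IL6, and no IL6 array came near a histamine array. The difference was -4.70 (SE 0.09, n = 3 arrays per group, limma adjusted p = 1.95e-13), a level at least 26.1-fold higher after histamine. VIP, vasoactive intestinal peptide, measured 5.57, 5.59 and 5.80 after IL6 and 8.91, 8.86 and 8.94 after histamine, from 4.82, 4.94 and 4.81 in untreated cells. Both treatments had raised VIP above untreated cells, by 0.80 and 4.05, and the 3 groups did not overlap. VIP was 9.51-fold higher after histamine than after IL6 (difference -3.25, SE 0.09). The gene listed as LOC407218, for which the cattle gene table gives CALCB as a synonym, a calcitonin gene-related peptide, measured 5.66, 5.67 and 5.61 after IL6 and 8.25, 8.18 and 8.22 after histamine. Its untreated arrays, at 5.58 to 5.73, lay with the IL6 arrays, and the difference was -2.57 (SE 0.08).

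In the whole list of neuropeptides and peptide hormones, 20 of 30 genes were measured (median difference -0.21). Of these, 4 were called higher after histamine, beside 4.28% of all genes, and 1 higher after IL6, beside 3.2%. The fourth histamine-high member was SST, somatostatin, with a difference of -0.92 (SE 0.12). The member higher after IL6 was PTHLH, parathyroid hormone-related protein, at 7.18, 7.17 and 6.98 after IL6 against 4.72, 4.83 and 4.83 after histamine. Untreated cells had 4.77, 4.78 and 4.68, so only the IL6 arrays stood away from the low end of the scale. PTHLH was at least 4.98-fold higher after IL6 (difference 2.32, SE 0.13, limma adjusted p = 1.39e-08). NPPA, the atrial natriuretic peptide, was called against untreated cells after both treatments, by 1.06 after IL6 and by 1.61 after histamine. The direct difference of -0.56 (95% interval -0.73 to -0.38) did not reach the fold minimum, although its arrays did not overlap. PENK, proenkephalin, lay at 13.82 to 13.84 after IL6 and 14.05 to 14.08 after histamine, close to the ceiling of the arrays, with a difference of -0.24 that was not called.

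Among granule proteins and peptide-processing enzymes, 3 of 13 measured genes were called, each higher after histamine, beside 4.28% of all genes (median difference of the list -0.12). SCG2, secretogranin II, measured 13.11, 13.05 and 13.06 after IL6 and 13.90, 13.87 and 13.83 after histamine. The untreated arrays, at 13.10 to 13.18, lay around the IL6 values, and the difference was -0.79 (SE 0.03). SCG2 was 1.73-fold higher after histamine, in a range where differences may be compressed. PCSK1, the prohormone convertase that cleaves granule precursors, differed by -0.73 (SE 0.09), and PTPRN, a granule membrane protein, by -0.60 (SE 0.11). PTPRN fell below the fold minimum without IL6 repeat 2 (-0.51), without histamine repeat 1 (-0.55) and without histamine repeat 2 (-0.54), and was -0.46 without the 3 uneven arrays. CHGA differed by -0.08 and CHGB, chromogranin B, by -0.31, and neither was called.

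PNMT, which converts noradrenaline to adrenaline, had the widest gap among the genes of catecholamine synthesis, storage and breakdown. Its levels were 6.94, 7.49 and 7.79 after IL6 and 10.60, 10.48 and 10.16 after histamine, with 8.08, 8.06 and 8.22 in untreated cells. Every IL6 array lay below every untreated array and every histamine array above. PNMT was 8.04-fold higher after histamine than after IL6 (difference -3.01, SE 0.23, limma adjusted p = 2.04e-07), and against untreated cells it was called lower after IL6 (-0.71) and higher after histamine (2.29). The fall after IL6 was no longer called when any untreated repeat, IL6 repeat 1 or 2, or histamine repeat 1 or 2 was left out, and it was -0.48 without IL6 repeat 1. IL6 repeat 1, with the lowest hypoxia genes, also had the lowest PNMT, and without IL6 repeats 2 and 3 and interferon alpha repeat 3 the difference was -3.47. The part of the hypoxia genes in the spread of PNMT was not tested.

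Of 17 measured genes of this list, 4 were called higher after histamine, beside 4.28% of all genes, and 1 higher after IL6, beside 3.2%. The median difference was -0.00. MAOB, a monoamine oxidase that breaks down amines, measured 8.99, 9.02 and 8.94 after IL6 and 9.88, 9.83 and 9.80 after histamine. Untreated arrays (9.78 to 9.84) lay with histamine, so the difference of -0.85 (SE 0.06) came with a call against untreated cells after IL6 alone, at -0.82. SLC31A1, a copper importer, differed by -0.68 (SE 0.13) and GCH1, which makes the cofactor of TH, by -0.63 (SE 0.10), and each was called against untreated cells only after histamine. GCH1 fell below the fold minimum without IL6 repeat 1 (-0.54) or histamine repeat 1 (-0.57). SULT1A1, a sulfotransferase that inactivates phenols and catechols, ran the other way: it measured 10.30, 10.41 and 10.29 after IL6, 8.45, 8.61 and 8.59 after histamine and 9.05 to 9.08 in untreated cells. The SULT1A1 arrays of the 3 groups did not overlap, and the level was 3.44-fold higher after IL6 (difference 1.78, SE 0.07).

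TH and DBH, the enzymes before PNMT, were not called. TH differed by -0.09 (95% interval -0.15 to -0.02). DBH, which makes noradrenaline from dopamine, measured 10.17, 10.76 and 11.22 after IL6 and 10.94, 10.91 and 10.31 after histamine, and the interval of its difference ran from -0.49 to 0.48. Against untreated cells, DBH was called lower after IL6 without IL6 repeat 3 (-0.84), but not with all arrays (-0.59). Without the 3 uneven arrays this change was -1.13. The vesicular monoamine transporter SLC18A2 was called above untreated cells after IL6 (0.85) and after histamine (0.77), with a direct difference of 0.09 (95% interval -0.30 to 0.47).

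Immediate early genes and genes responsive to cyclic AMP or calcium were called in both directions: 8 of 27 measured members were higher after histamine, beside 4.28% of all genes, and 4 higher after IL6, beside 3.2% (median difference 0.01). The orphan nuclear receptor NR4A1 measured 5.72, 6.45 and 6.60 after IL6 and 8.34, 8.42 and 8.55 after histamine, with 6.02 to 6.16 in untreated cells. The histamine arrays stood clear of the other groups, and the difference was -2.18 (SE 0.19). NR4A2, a relative of NR4A1, lay at 6.65, 6.89 and 6.54 after IL6, at 8.36, 8.27 and 8.49 after histamine and at 7.52 to 7.56 in untreated cells. It thus lay below untreated cells after IL6 (-0.85) and above them after histamine (0.83), both called, with a direct difference of -1.68 (SE 0.09). No other probe set of NR4A2 was called, and the mean over its probe sets differed by -0.46, which was not called.

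EGR1, a zinc-finger factor, measured 9.05, 9.63 and 9.87 after IL6 and 11.06, 10.93 and 11.14 after histamine, a difference of -1.53 (SE 0.18). FOS, a subunit of AP-1, measured 6.99, 7.29 and 7.74 after IL6 and 9.04, 8.81 and 8.67 after histamine, a difference of -1.5 (SE 0.17). Neither gene was called between IL6 and untreated cells, except without IL6 repeat 1 (0.69 for EGR1 and 0.67 for FOS), whereas histamine arrays stood above untreated ones by 1.98 and 2.00. CREM, a cyclic AMP-responsive regulator, was called above untreated cells after both agents, at 9.77, 9.57 and 9.56 after IL6 and 10.93, 10.80 and 10.81 after histamine from 8.25 to 8.40. The gap between the treatments was -1.21 (SE 0.10), but it was called with the brightest of 6 probe sets only, and the mean over them differed by -0.24, which was not called. RASD1, NAB2 and PPARGC1A were the remaining members higher after histamine, at -0.99, -0.74 and -0.66. They were named after their values were seen, as were KLF4, JUN and TRIB1 below.

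The members higher after IL6 were ATF3, KLF4, TRIB1 and JUN. ATF3, a stress-induced factor that also marks injured neurons, measured 11.63, 11.38 and 11.12 after IL6, 9.56, 9.59 and 9.59 after histamine and 10.29 to 10.33 in untreated cells. Every IL6 array lay above untreated cells and every histamine array below, and the difference was 1.80 (SE 0.10, limma adjusted p = 1.2e-08). KLF4, TRIB1 and JUN differed by 1.16, 0.97 and 0.97. FOSB differed by -0.01 (95% interval -0.24 to 0.22) and JUNB by 0.25 (95% interval -0.07 to 0.58), and neither was called. Of 7 measured MAPK feedback genes, 1 was called, beside 7.48% of all genes. It was SPRY2, an inhibitor of growth factor signalling, at -0.83 (SE 0.08). Its called changes against untreated cells were 0.59 after IL6 and 1.42 after histamine. The first was 0.54 without untreated repeat 2, 0.55 without IL6 repeat 2 and 0.56 without the 3 uneven arrays, each under the fold minimum.

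Several genes outside these lists were among the 15 largest differences towards histamine. SMYD2, a lysine methyltransferase, measured 7.25, 7.45 and 7.40 after IL6 and 9.98, 9.95 and 9.83 after histamine, with untreated arrays at 7.49 to 7.61, and was 5.87-fold higher after histamine (difference -2.55, SE 0.07). MEST, an imprinted gene of the hydrolase family, measured 8.69, 8.67 and 8.62 against 10.92, 10.76 and 10.76, a difference of -2.15 (SE 0.06). Another bright MEST probe set averaged 8.65 in untreated cells, 8.19 after IL6 and 8.46 after histamine. Its difference of -0.26 was not called, and neither was that of a dim one (0.02), while a further one was called at -1.34. PSAT1, an enzyme of serine synthesis, measured 9.21, 9.17 and 9.19 against 11.10, 11.08 and 11.09, a difference of -1.90 (SE 0.04). Against untreated cells, the changes of SMYD2, MEST and PSAT1 were -0.19, 0.12 and 0.12 after IL6, none called, and 2.37, 2.27 and 2.02 after histamine, all called. Also in this group were the kinase RPS6KA3 (-2.14), the secreted phosphoprotein SPP1 (-2.02), FGF12, a fibroblast growth factor homologue (-1.98), the potassium channel KCNB2 (-1.97) and the prostaglandin F receptor PTGFR (-1.95). All of these were called against untreated cells after histamine and none after IL6.

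**Figure D2:**
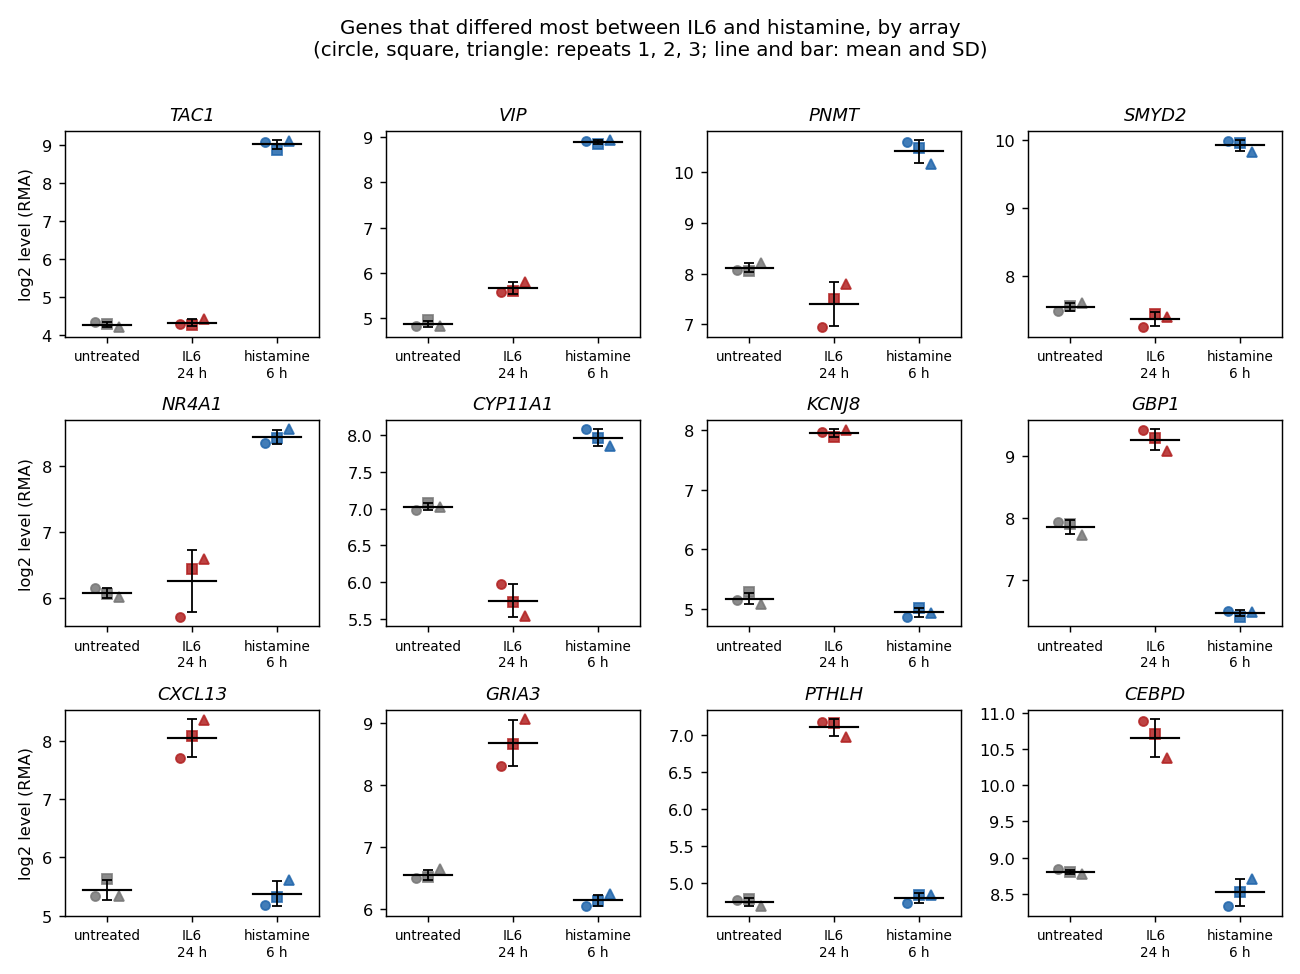
Log2 levels of 12 genes with large differences on each untreated (grey), IL6 (red) and histamine (blue) array; circles, squares and triangles are repeats 1, 2 and 3, and the line and bar are the mean and SD of 3 arrays. TAC1, VIP, PNMT, SMYD2, NR4A1 and CYP11A1 are higher on every histamine array than on any IL6 array, and KCNJ8, GBP1, CXCL13, GRIA3, PTHLH and CEBPD are higher on every IL6 array.

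On the IL6 side, KCNJ8, the pore of an ATP-sensitive potassium channel, gave the largest difference among named genes. It measured 7.97, 7.88 and 8.0 after IL6, 4.87, 5.02 and 4.94 after histamine and 5.15, 5.28 and 5.09 in untreated cells. Histamine and untreated arrays both lay near the lower quartile, well below the IL6 arrays. KCNJ8 was at least 8.04-fold higher after IL6 (difference 3.01, SE 0.11, limma adjusted p = 1.15e-10). CXCL13, a chemokine that attracts B cells, measured 7.71, 8.08 and 8.36 after IL6 and 5.19, 5.32 and 5.61 after histamine, a difference of 2.68 (SE 0.18). TNFAIP6, a secreted hyaluronan-binding protein, measured 10.58, 10.38 and 10.31 against 8.17, 8.14 and 8.30, a difference of 2.22 (SE 0.09). ANGPT2, angiopoietin 2, a regulator of vessels, measured 7.72, 7.78 and 7.54 against 5.58, 5.65 and 5.64, a difference of 2.06 (SE 0.10). For these 4 genes the change against untreated cells was called after IL6 and not after histamine.

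MYB, a transcription factor of progenitor cells, was called above untreated cells after both agents, by 2.23 after IL6 and 0.62 after histamine, the latter 0.55 and not called without histamine repeat 1. Its levels of 10.42, 10.41 and 10.30 after IL6 and 8.91, 8.63 and 8.76 after histamine did not overlap, and the difference was 1.61 (SE 0.09). PYROXD2, a mitochondrial oxidoreductase-like protein, reached the 15 largest differences from the other side. Its IL6 arrays (7.93, 8.17 and 8.11) lay close to untreated ones (7.81 to 7.98), while the histamine arrays, at 6.28, 6.4 and 6.29, were lower (change -1.58). ACKR3, an atypical chemokine receptor, had a difference of 1.98 with a wide error (SE 0.56, limma adjusted p = 0.013). Its IL6 arrays measured 6.52, 8.21 and 9.38 against 6.02, 6.03 and 6.13 after histamine, so IL6 repeat 1 was close to histamine. Without IL6 repeat 3 the difference was 1.30 and no longer called, and without IL6 repeats 2 and 3 and interferon alpha repeat 3 it was 0.46.

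STAT3 targets and feedback genes were called higher after IL6 in 5 of 21 measured members, beside 3.2% of all genes. One in the other direction was called, 1 of 21 beside 4.28%, and the median difference was 0.05. CEBPD, an acute-phase transcription factor, measured 10.88, 10.71 and 10.37 after IL6, 8.33, 8.53 and 8.71 after histamine and 8.78 to 8.84 in untreated cells. The IL6 arrays stood apart, and CEBPD was 4.38-fold higher after IL6 (difference 2.13, SE 0.12). SOCS3, the feedback inhibitor of IL6 signalling, measured 5.97, 5.97 and 5.86 after IL6 against 4.57, 4.74 and 4.68 after histamine. With untreated arrays at 4.65 to 4.66, only the IL6 arrays rose above the dim range, and SOCS3 was at least 2.41-fold higher after IL6 (difference 1.27, SE 0.07). The other SOCS3 probe set differed by 0.45, under the fold minimum. SOCS2 differed by 0.78 (SE 0.08). The member higher after histamine was VIP.

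The other members called higher after IL6 were the receptor genes IL4R and OSMR, which are also in the list of JAK-STAT components. In that list 3 of 12 measured genes were called, all higher after IL6, beside 3.2% of all genes. The median difference was 0.31, or 0.18 without the 3 uneven arrays. IL4R, the interleukin-4 receptor, differed by 1.01 (SE 0.08), but its second probe set, at 0.19, was not called. OSMR, the oncostatin M receptor that pairs with gp130, differed by 0.73 and IL10RB, a subunit of the interleukin-10 receptor, by 0.62. Without IL6 repeat 3 these values were 0.55 for OSMR and 0.41 for IL10RB, below the fold minimum. Without the 3 uneven arrays they were 0.29 and 0.22, also below the fold minimum. With all arrays, other OSMR probe sets differed by 0.80 and 0.75, both called, and by 0.47, under the fold minimum. STAT3 itself lay at 10.91 to 10.93 after IL6 and 10.99 to 11.12 after histamine, with a difference of -0.11 (95% interval -0.21 to -0.01) that was not called. IL6R (0.34), CEBPB (0.05), BCL3 (0.54) and PIM1 (-0.47) were not called either, and IL6R differed by 0.60 without the 3 uneven arrays. No list gene of histamine and Gq-calcium signalling was called by limma among 22 measured, and 8 of them had an unadjusted p under 0.05. Over all 24016 probe sets, 10076 had an unadjusted limma p under 0.05. That count is over probe sets, whereas a list counts genes by their brightest probe set. The receptor HRH1 was among the uncalled, at -0.51 (95% interval -0.69 to -0.34).

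Interferon-response genes were called only in the direction of IL6: 14 of 32 measured members were higher after IL6 and 0 higher after histamine, beside 3.2% of all genes higher after IL6. The median difference was 0.54, against 0 for all genes. GBP1, a guanylate-binding protein, measured 9.41, 9.28 and 9.08 after IL6, 6.51, 6.41 and 6.49 after histamine and 7.93, 7.90 and 7.72 in untreated cells. Untreated arrays lay between the treated groups without overlap, and GBP1 was 6.9-fold higher after IL6 (difference 2.79, SE 0.08, limma adjusted p = 1.27e-11). IFI27 measured 8.52, 8.56 and 8.73 after IL6 against 6.94, 6.85 and 7.0 after histamine, a difference of 1.67 (SE 0.07). NMI, a partner of STAT proteins, measured 10.71, 10.63 and 10.48 against 8.89, 8.98 and 9.08, a difference of 1.62 (SE 0.06). PARP9 differed by 0.97 (SE 0.12) and the membrane protein IFITM1 by 0.94 (SE 0.05).

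The untreated arrays split these genes. Against untreated cells, IFITM1, NMI, IFI27 and GBP1 were called higher after IL6, with IFITM1 at 0.57 and under the fold minimum without IL6 repeat 3. Without the 3 uneven arrays IFITM1 was at 0.49, also under the fold minimum. GBP1 and PARP9 were called lower after histamine, and so were DTX3L (-0.76), IRF9 (-0.74), DHX58 (-0.81) and GBP4 (-0.64), named after their values were seen; of these 4, GBP4 was not called between IL6 and histamine. IRF9, a subunit of the interferon-activated factor ISGF3, was 0.14 above untreated cells after IL6, which was not called. RSAD2, an antiviral enzyme, and EIF2AK2, a kinase that senses double-stranded RNA, had wide errors, with uncalled differences of 0.65 and -0.82. RSAD2 and EIF2AK2 lay outside the rules for naming genes and were not followed under the alternatives. Among genes of class I antigen presentation, 2 of 14 measured were called, both higher after IL6, beside 3.2% of all genes. They were the peptide transporter TAP1 at 1.03 (SE 0.08) and the immunoproteasome subunit PSMB9 at 0.72 (SE 0.08).

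Genes of axons, neurites and neurotrophins were called higher after IL6 in 6 of 18 measured members, beside 3.2% of all genes, and higher after histamine in 0 (median difference 0.09). GAP43, a growth-cone protein, measured 10.83, 10.87 and 10.82 after IL6, 8.94, 9.19 and 9.02 after histamine and 8.63 to 8.84 in untreated cells. The IL6 arrays were the highest by a wide margin, and the difference was 1.79 (SE 0.07, limma adjusted p = 5.18e-10). STMN4, a tubulin-binding protein of neurons, reached its difference of 1.09 (SE 0.06) from below: IL6 arrays (10.28 to 10.45) lay close to untreated ones (10.18 to 10.26) and histamine arrays at 9.16 to 9.33. MAPT, the microtubule protein tau, had the same layout with a difference of 0.60. It lay outside the rules for naming genes and was not followed under the alternatives. OMG, a myelin-associated inhibitor of neurite growth, was called lower than untreated cells after both agents, with changes of -1.07 after IL6 and -1.76 after histamine, which left a difference of 0.69 (SE 0.12). STMN2 differed by 0.61 and fell just under the fold minimum without IL6 repeat 1 (0.58).

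Among potassium, sodium and calcium channels, 1 of 16 measured genes was called higher after histamine, beside 4.28% of all genes, and 3 higher after IL6, beside 3.2%. Beside KCNJ8, these were SCNN1G, a subunit of the epithelial sodium channel, at 6.70, 6.68 and 6.56 after IL6 against 5.00, 5.01 and 5.02 after histamine, and the calcium channel subunit CACNB3 (difference 0.83, SE 0.07). The histamine arrays of SCNN1G lay at the lower quartile, so it was at least 3.11-fold higher after IL6. The other SCNN1G probe set differed by 0.47, under the fold minimum. KCNMB4, which modulates calcium-activated potassium channels, differed by -0.69 (SE 0.05). Its changes against untreated cells, -0.39 after IL6 and 0.30 after histamine, were each under the fold minimum.

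Receptors for transmitters and peptides were called in 5 of 27 measured members, beside 7.48% of all genes, and 4 of them were higher after IL6, beside 3.2%. GRIA3, an AMPA-type glutamate receptor subunit, measured 8.31, 8.65 and 9.06 after IL6, 6.05, 6.13 and 6.24 after histamine and 6.50 to 6.65 in untreated cells. All IL6 arrays lay above the rest, and the difference was 2.53 (SE 0.19). GRM7, a metabotropic glutamate receptor, measured 8.66, 8.60 and 8.64 against 7.35, 7.35 and 7.45, a difference of 1.25 (SE 0.07). PTGER3, a prostaglandin E receptor, was called above untreated cells after IL6 (0.69) and below them after histamine (-0.73), with a difference of 1.42 (SE 0.13). EDNRB, an endothelin receptor, differed by 0.93 (SE 0.22). The opioid receptor OPRM1 differed by -0.79 (SE 0.22). It lost its call when IL6 repeat 2 (-0.71) or histamine repeat 1 (-0.56) or 2 (-0.72) was left out. Without the 3 uneven arrays it differed by -0.82.

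In the exocytosis machinery, 2 of 19 measured genes were called, beside 7.48% of all genes. NSF, the ATPase that recycles SNARE complexes, measured 9.80, 9.70 and 9.74 after IL6 and 10.50, 10.48 and 10.48 after histamine, a difference of -0.74 (SE 0.05). SYT11, a synaptotagmin, differed by 0.68 (SE 0.05). Against untreated cells, the changes of NSF and SYT11 were -0.00 and 0.08 after IL6, not called, and 0.74 and -0.60 after histamine, both called. Without histamine repeat 2 the change of SYT11 was -0.58, under the fold minimum. Of 5 measured chromaffin and sympathoadrenal transcription factors, 1 was called, beside 7.48% of all genes. This was SOX4, at 1.04 (SE 0.20), with a called change of -0.79 after histamine against untreated cells.

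Genes called in opposite directions by the treatments against untreated cells included, by the smaller of their changes, GBP1, ATF3, ALCAM, CYP11A1, NR4A2 and HSD3B1. ALCAM, an adhesion molecule, measured 5.52, 5.37 and 5.30 after IL6, 7.84, 7.79 and 7.66 after histamine and 6.59, 5.99 and 6.24 in untreated cells. Untreated arrays lay between the groups without overlap. The change was -0.88 after IL6 and 1.49 after histamine, and the direct difference was -2.37 (SE 0.15). Both changes are measured from the same untreated arrays.

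Other genes had left the untreated level in the same direction after both treatments and were not called between them. GAL, galanin, measured 13.10, 13.13 and 13.11 after IL6 and 13.28, 13.33 and 13.31 after histamine, from 11.70, 11.64 and 11.65 in untreated cells. All 6 treated arrays lay far above the untreated ones, by 1.45 after IL6 and 1.64 after histamine. The histamine arrays were above the IL6 arrays by a small step without overlap (difference -0.19, 95% interval -0.25 to -0.13), in a range where values approach the ceiling. NTRK2, which encodes the neurotrophin receptor TrkB, measured 9.39, 9.43 and 9.46 after IL6 and 9.50, 9.50 and 9.62 after histamine, from 7.89 to 7.92. Its difference was -0.11 (95% interval -0.24 to 0.01). KCNE1, a potassium channel subunit, was above untreated cells by 1.96 after IL6 and 1.88 after histamine, with a difference of 0.08 (95% interval -0.10 to 0.26).

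MC4R, a melanocortin receptor, had fallen by 1.30 after IL6 and by 1.54 after histamine against untreated cells. Its IL6 arrays were spread from 7.04 to 7.87, and the interval of the difference ran from -0.26 to 0.74. UPP1, which breaks down uridine, and VLDLR, a lipoprotein receptor, also stood above untreated cells after both, with differences of -0.18 (95% interval -0.71 to 0.35) and -0.51 (95% interval -0.97 to -0.05). The IL6 arrays of all 3 genes were uneven. Without IL6 repeats 2 and 3 and interferon alpha repeat 3, the differences became 0.64 for MC4R, -0.82 for UPP1 and -0.81 for VLDLR. Each of these values rests on IL6 repeat 1 alone.

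**Figure D3:**
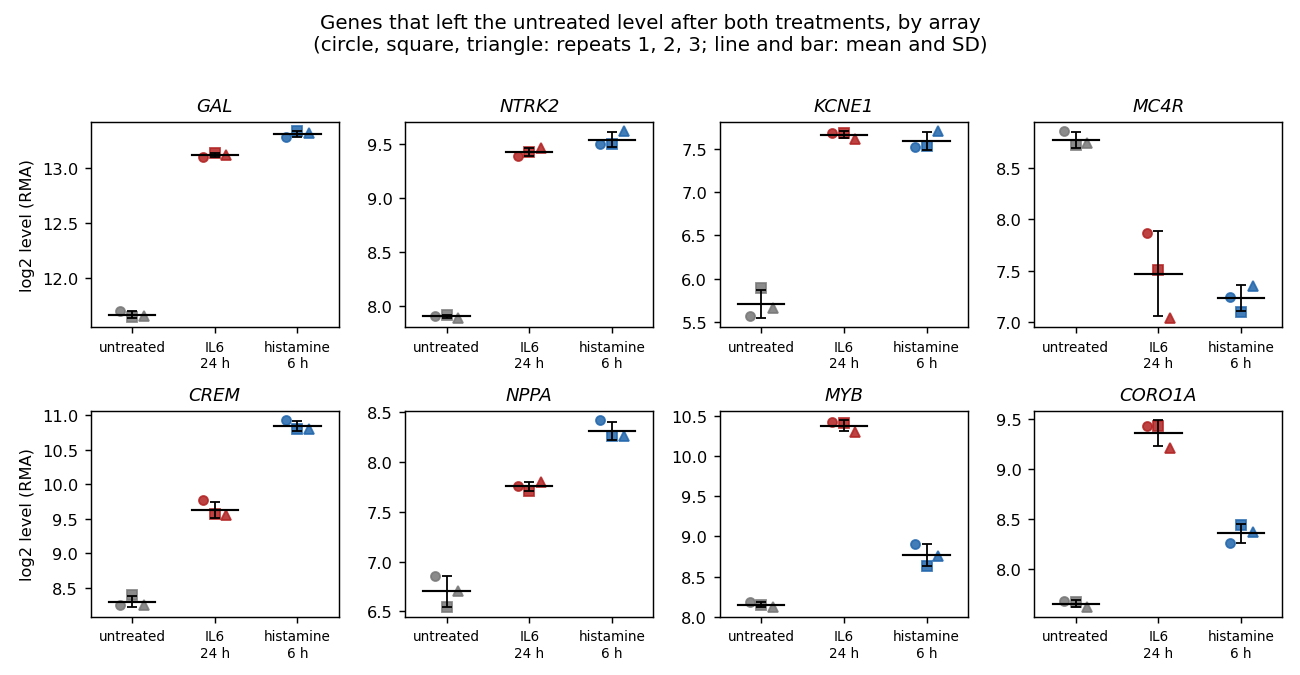
Log2 levels of 8 genes that were called against untreated cells after both treatments, on each untreated (grey), IL6 (red) and histamine (blue) array; circles, squares and triangles are repeats 1, 2 and 3, and the line and bar are the mean and SD of 3 arrays. GAL, NTRK2 and KCNE1 reach similar levels after both, CREM and NPPA are higher after histamine, MYB and CORO1A are higher after IL6, and MC4R is lower than untreated after both.

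Genes of steroid synthesis, which mark the adrenal cortex rather than the medulla, were called higher after histamine in 7 of 15 measured members and higher after IL6 in 0, beside 4.28% of all genes higher after histamine. The median difference was -0.46. CYP11A1, the enzyme that starts steroid synthesis from cholesterol, measured 5.98, 5.74 and 5.54 after IL6, 8.07, 7.96 and 7.85 after histamine and 6.98 to 7.08 in untreated cells. The 3 groups did not overlap, and CYP11A1 was 4.62-fold higher after histamine than after IL6 (difference -2.21, SE 0.13, limma adjusted p = 1.41e-08). HSD3B1 measured 7.37, 7.38 and 7.40 against 9.06, 8.97 and 8.94, a difference of -1.61 (SE 0.06), with untreated arrays between them at 8.12 to 8.22. STAR, which carries cholesterol into mitochondria, differed by -1.28 (SE 0.10) and CYP17A1 by -1.02 (SE 0.10).

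NR0B1, a repressor of steroidogenic genes, differed by -0.81 (SE 0.22). Its IL6 arrays were uneven, at 8.30, 9.13 and 9.46, and it was not called without IL6 repeat 1 (-0.48) or as the mean of its probe sets (-0.48). Without the 3 uneven arrays it differed by -1.47. Summed on the linear scale, the 15 cortex markers came to 6152 to 6303 on the untreated arrays, 4735 to 5702 on the IL6 arrays and 6594 to 7047 on the histamine arrays. In bulk samples, fewer cells of a type and less RNA per cell cannot be told apart, which holds for each marker list here.

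Fibroblast and mural cell markers were likewise called higher after histamine, in 9 of 19 measured members, beside 4.28% of all genes, and higher after IL6 in 0 (median difference -0.48). CNN1, a smooth muscle calponin, measured 7.09, 7.36 and 7.28 after IL6 and 8.48, 8.54 and 8.46 after histamine, a difference of -1.25 (SE 0.10), with untreated arrays (7.19 to 7.36) at the IL6 level. ACTA2, smooth muscle actin, measured 8.39, 8.35 and 8.27 against 9.55, 9.36 and 9.41, a difference of -1.10 (SE 0.07), and here the called change against untreated cells was a fall of 0.67 after IL6. The collagen COL1A2 differed by -1.08 (SE 0.09), fibronectin FN1 by -1.05 (SE 0.09) and lumican LUM by -0.71 (SE 0.08). The other COL1A2 probe set differed by -0.49, under the fold minimum. The other FN1 probe set was not called, and the mean of both differed by -0.46, under the fold minimum. DCN, decorin, chosen after its value was seen as an abundant marker of the same list, differed by -0.03 and was not called. The summed level of the 19 markers was 22429 to 23207 on untreated, 19196 to 20781 on IL6 and 24734 to 25203 on histamine arrays. Matrix and protease genes outside this list included TIMP3 (-1.05), MMP9 (-0.92) and SPARC (-0.88), higher after histamine, and PLAT, tissue plasminogen activator (0.74), higher after IL6. They belong to the list of the plasminogen system, metalloproteases and their inhibitors. Of its 21 measured genes, 5 were called higher after histamine, beside 4.28% of all genes, and 3 higher after IL6, beside 3.2% (median difference -0.08).

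Markers of leukocytes were called in both directions, 3 of 20 higher after IL6, beside 3.2% of all genes, and 2 higher after histamine, beside 4.28% (median difference 0.00). CORO1A, an actin regulator of leukocytes, measured 9.43, 9.43 and 9.21 after IL6, 8.26, 8.44 and 8.37 after histamine and 7.62 to 7.68 in untreated cells. It was called above untreated cells after both agents, by 1.70 and 0.70, and the direct difference was 1.00 (SE 0.08). CD14, a receptor for bacterial lipopolysaccharide, differed by 1.01 (SE 0.12) and LCP1 by 0.60 (SE 0.09), the latter dropping to 0.51 without IL6 repeat 1. S100A12, a calcium-binding protein of granulocytes, differed by -1.14 (SE 0.16), and LAPTM5 by -0.65 (SE 0.09). The summed level of the 20 markers was 1165 to 1232 on untreated, 1753 to 1910 on IL6 and 1449 to 1530 on histamine arrays. Such a sum gives most weight to bright members. The mean log2 change of the 20 markers against untreated cells was alike after both agents. It was 0.19, 0.16 and 0.24 in the IL6 repeats and 0.21, 0.17 and 0.23 in the histamine repeats. Below the lower quartile on all 9 of these arrays lay 4 members.

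Of 18 measured endothelial markers, ANGPT2 and SELP, P-selectin, were called, both higher after IL6, beside 3.2% of all genes. SELP differed by 1.14 (SE 0.11), with a called fall of 0.82 after histamine against untreated cells, and was at least 2.2-fold higher after IL6. The summed endothelial level was 1059 to 1111 on untreated, 1079 to 1159 on IL6 and 920 to 1013 on histamine arrays. No marker of Schwann and sustentacular cells (7 measured, 5 with an unadjusted p under 0.05 in limma) or of erythrocytes (7 measured, 1 with an unadjusted p under 0.05) was called. Such a p was reached by 10076 of all 24016 probe sets, a count over probe sets and not over genes. Of 12 measured chromaffin cell markers, PNMT and SCG2 were called, both higher after histamine, beside 4.28% of all genes. Their list had a summed level of 77682 to 79885 on untreated, 73376 to 81655 on IL6 and 88097 to 90818 on histamine arrays. The part of these shifts in the marker levels in the differences of other genes was not tested.

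Among 31 measured cytokines and chemokines, 2 were called higher after IL6, beside 3.2% of all genes, and 3 higher after histamine, beside 4.28%. IL18, a proinflammatory cytokine, measured 5.84, 5.87 and 5.68 after IL6, 7.41, 7.35 and 7.53 after histamine and 6.36 to 6.54 in untreated cells. Untreated arrays lay between the treated groups, with called changes of -0.67 after IL6 and 0.97 after histamine, and the difference was -1.63 (SE 0.09). The chemokine CXCL14 differed by -1.14 (SE 0.16) and TGFB2, a transforming growth factor beta, by -1.06 (SE 0.14). Beside CXCL13, IL33 was higher after IL6 by 0.64 (SE 0.10), from a dim level. It differed by 0.48 without the 3 uneven arrays and by 0.40 as the mean of its probe sets, both under the fold minimum. Of 18 acute-phase and complement genes, CD14 and C3, the central complement component, were called higher after IL6, beside 3.2% of all genes. C3 differed by 0.76, and by 0.39 without the 3 uneven arrays, under the fold minimum. The mean over its probe sets, 0.30, was not called.

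Unfolded protein response genes and chaperones of the endoplasmic reticulum were called higher after histamine in 4 of 23 measured members, beside 4.28% of all genes, and higher after IL6 in 0 (median difference -0.15). HSP90B1, the chaperone GRP94, measured 11.28, 11.06 and 10.91 after IL6 and 11.91, 11.88 and 12 after histamine, a difference of -0.85 (SE 0.08). DNAJC3 differed by -0.72, MANF, a secreted stress-response factor, by -0.67, and HYOU1 by -0.66. HYOU1 was called by its brightest probe set only. Cholesterol and fatty acid genes were called higher after histamine in 3 of 19 measured members, beside 4.28% of all genes. These were ELOVL6 (-0.78), INSIG1 (-0.73) and FASN, fatty acid synthase (-0.70). INSIG1 lost its call without IL6 repeat 3 (-0.56) or histamine repeat 3 (-0.63). Without the 3 uneven arrays INSIG1 (-0.36) and FASN (-0.52) were under the fold minimum, and the median of the list was -0.03 in place of -0.23. CRY1, a repressor of the circadian clock, was the called member of 9 clock genes, beside 7.48% of all genes. It differed by -1.10 (SE 0.08), with 7.35, 7.47 and 7.43 after IL6 and 8.43, 8.51 and 8.61 after histamine. PER2 (-0.20) and NR1D1 (0.01) were not called. Of 29 cell cycle and replication genes, only MCM7, a subunit of the replicative helicase, was called, at 0.61, beside 7.48% of all genes. It fell to 0.57 without IL6 repeat 1 and 0.58 without IL6 repeat 2, under the fold minimum.

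**Figure D4:**
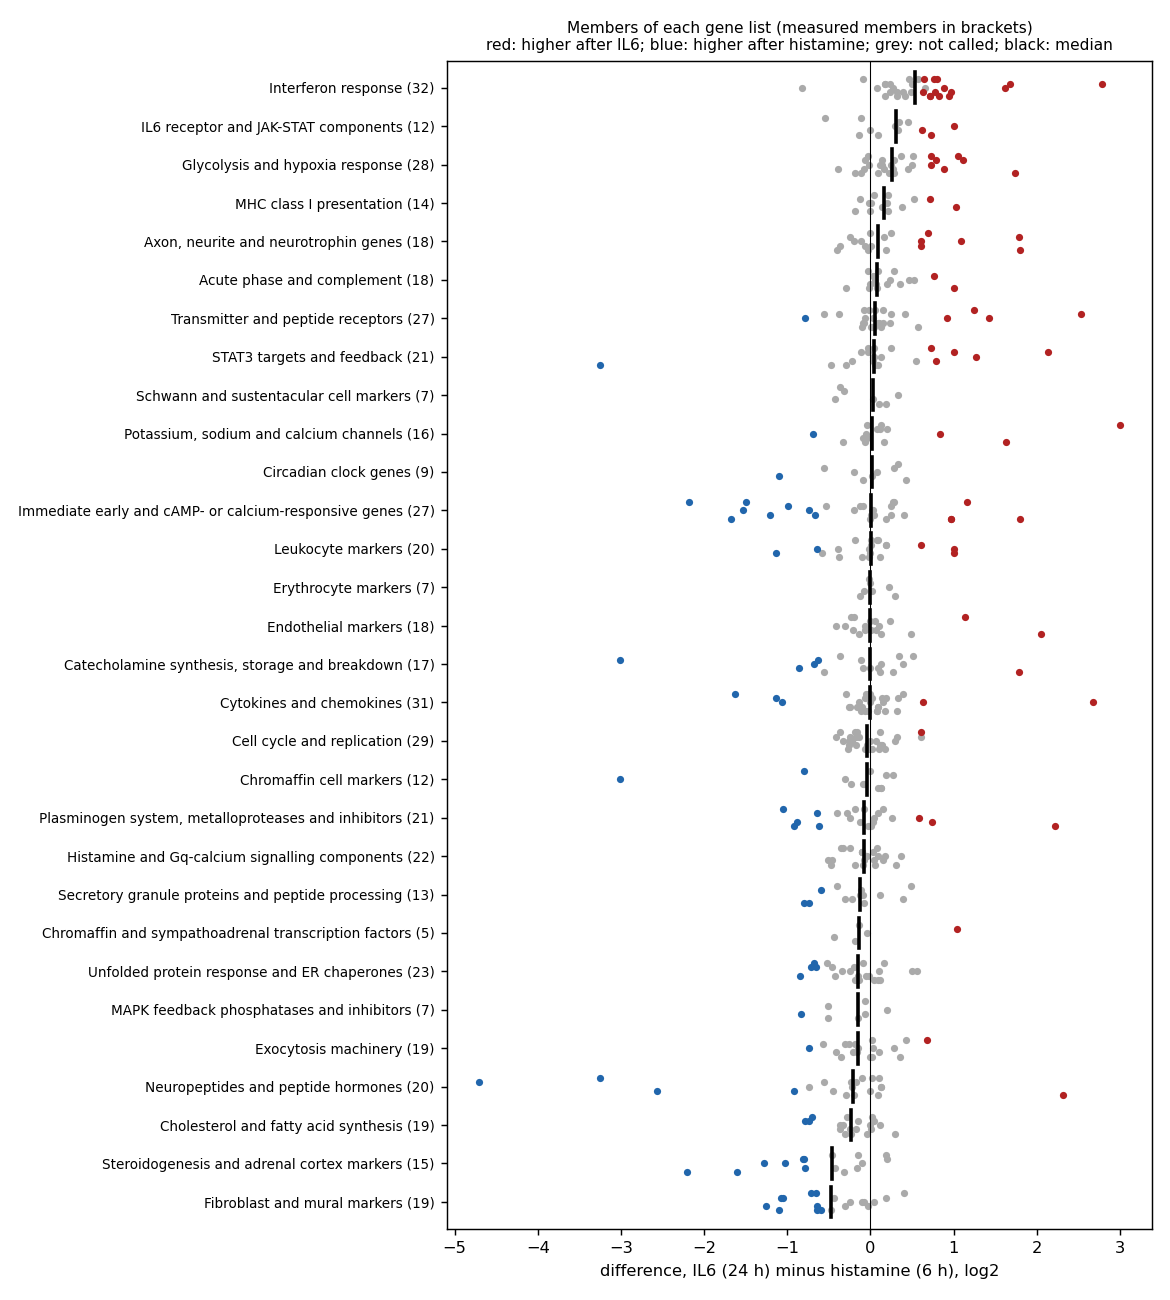
Difference between IL6 (24 h) and histamine (6 h) on the log2 scale for each measured member of 30 gene lists, ordered by the median of the list (black bar); red and blue points were called higher after IL6 and after histamine, and grey points were not called. The interferon list lies farthest to the IL6 side (median 0.54) and the fibroblast and cortex lists farthest to the histamine side (-0.48 and -0.46).

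Hypoxia and glycolysis genes were called higher after IL6 in 7 of 28 measured members, beside 3.2% of all genes, and higher after histamine in 0. The IL6 arrays disagreed, however. NDRG1, a hypoxia-induced gene, measured 9.80, 11.05 and 11.76 after IL6 and 9.04, 9.12 and 9.23 after histamine, a difference of 1.74 (SE 0.48, limma adjusted p = 0.0115). IL6 repeat 1 lay nearest to histamine and repeat 3 farthest. Without IL6 repeat 3 the difference was 1.29 and not called, and without the 3 uneven arrays it was 0.67. LDHA, lactate dehydrogenase, measured 11.45, 12.30 and 12.84 against 11.13, 11.09 and 11.02, a difference of 1.12 (SE 0.36, limma adjusted p = 0.0287). It lost its call without IL6 repeat 2 (1.06), without IL6 repeat 3 (0.80) and when any histamine repeat was left out (1.09 to 1.14), and was 0.37 without the 3 uneven arrays. The other LDHA probe sets differed by 0.18 and 0.29 and were not called, and neither was the mean of all 3, at 0.53.

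DDIT4 (1.05), EGLN3 (0.89) and BNIP3 (0.79) also had their lowest IL6 level in repeat 1 and their highest in repeat 3. EGLN3 lost its call without IL6 repeat 3 (0.61) or histamine repeat 1 (0.74), and BNIP3, whose arrays overlapped, lost it whenever any untreated or histamine repeat, IL6 repeat 2 (0.74) or IL6 repeat 3 (0.46) was left out. Without the 3 uneven arrays the differences were 0.28 for DDIT4, 0.37 for EGLN3 and 0.05 for BNIP3, each under the fold minimum. VEGFA, the vascular growth factor, measured 9.41, 11.17 and 11.95 after IL6 and 10.73, 10.71 and 10.74 after histamine, from 9.44 to 9.52 in untreated cells. IL6 repeat 1 lay with untreated cells and repeats 2 and 3 above histamine, so the difference of 0.12 had a 95% interval of -1.11 to 1.34. Without IL6 repeats 2 and 3 and interferon alpha repeat 3, IL6 repeat 1 alone remained, and VEGFA differed by -1.32. Under the same setting the median of the hypoxia list was -0.01 in place of 0.26. The 3 arrays were set apart for their high levels of this same list, so lower values of its members followed from that choice. The median of the interferon list was 0.51 there, against 0.54 with all arrays.

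**Figure D5:**
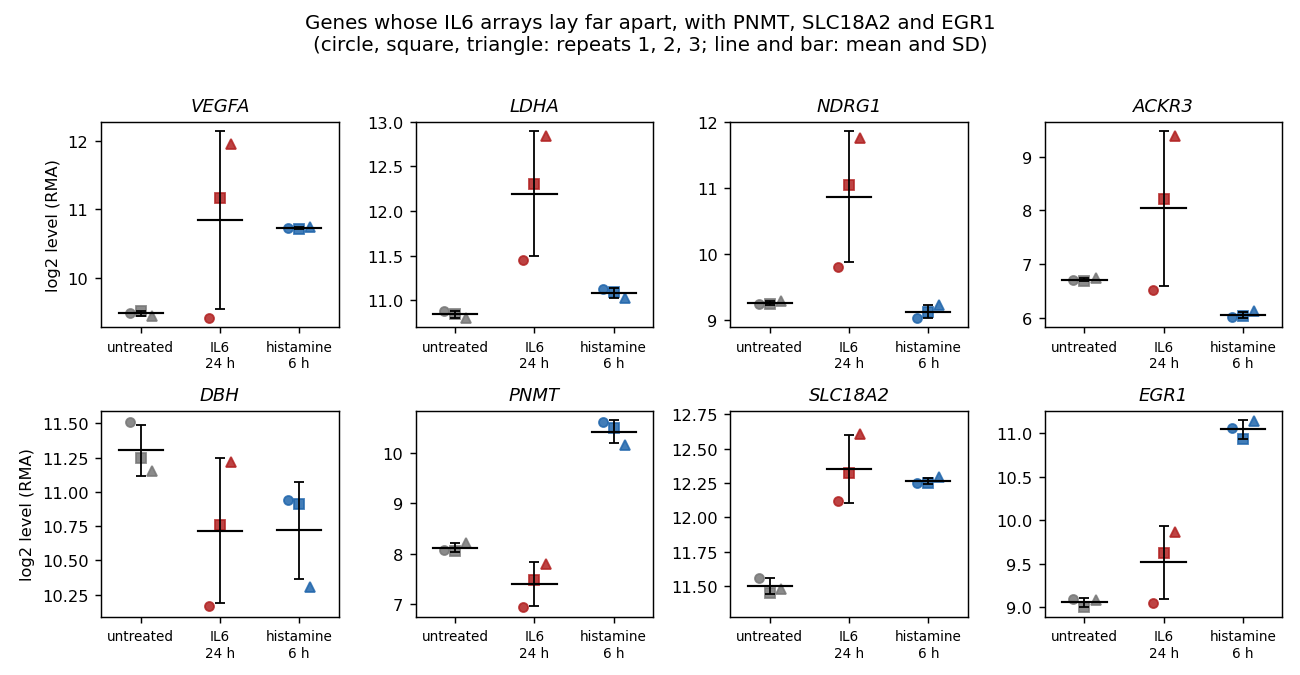
Log2 levels of 8 genes on each untreated (grey), IL6 (red) and histamine (blue) array; circles, squares and triangles are repeats 1, 2 and 3, and the line and bar are the mean and SD of 3 arrays. In VEGFA, LDHA, NDRG1, ACKR3, DBH, PNMT, SLC18A2 and EGR1 repeat 1 is the lowest IL6 array and repeat 3 the highest, and VEGFA spans 9.41 to 11.95 after IL6 while the histamine arrays lie at 10.71 to 10.74.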

How the data were processed

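Biotin-labelled total RNA was measured on Affymetrix bovine arrays of a single colour (label protocols). The deposited values are log2 expression levels. Per the submitters' processing notes, the authors used RMA, with no version named. RMA normalises arrays to each other and can compress differences of dim and of very bright transcripts. Nothing was rescaled. Of the probe sets, 112 controls were left out and 24016 tested. The platform annotation, updated through a cattle gene table, gave 1 symbol for 13292, several for 86 and none for 10638; the last 2 kinds were tested but not named. Groups, doses and times came from the labels.

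Limma 3.58.1 in R 4.3.3 fitted a mean per group over all 12 arrays, followed by eBayes with a trend of variance on mean, and p-values were adjusted over all probe sets by Benjamini-Hochberg. SEs and 95% intervals come from this fit. Tested on simulated data for this comparison (24016 probe sets), it recovered 52.2% of 1.5-fold, 100% of 2-fold and 100% of 4-fold differences with 1 false call. A simulated 1.5-fold difference lay exactly on the fold minimum, so its recovery was set by that rule. The simulated noise was independent between arrays, and probe sets without an added difference had none. The 1 false call therefore does not estimate false calls among the real ones. The number of arrays limits the precision.

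Members, lists and rules were chosen with earlier results of these data known. Named are the 15 largest called differences in each direction with 1 symbol and arrays that do not overlap, up to 5 called members of each of 30 lists (515 of 718 listed genes measured, 118 called), a fixed set of chromaffin and cytokine genes, and up to 6 genes moved oppositely or alike by both treatments. SLC18A1, NR4A3, IL6ST and PER1 of the fixed set were not analysed here. A list is described by counts and its median, without a test. Correlations of deviations between IL6 and histamine repeats of the same number were 0.14, 0.05 and 0.03, and IL6 repeat 2 correlated best with histamine repeat 3 (0.15), so the numbers were not taken to pair samples. Alternatives were other call rules, variance moderation, array weights, a dim filter, 3 normalizations, the 6 arrays alone, the repeat number as a block, all probe sets of a gene, and arrays left out. Figures were drawn with matplotlib 3.10.9.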

Additional observations from a re-analysis of the deposited data

How the results depend on the processing

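With a fold minimum of 2, 333 probe sets were called between IL6 and histamine, 148 between IL6 and untreated cells and 254 between histamine and untreated cells; with no fold minimum the counts were 7901, 4170 and 7581. Called list members numbered 51 and 249 under these rules. Leaving out each array in turn gave 1410 to 1777 called probe sets for IL6 against histamine, 564 to 765 for IL6 against untreated cells, 1364 to 1450 for histamine against untreated cells and 112 to 121 called list members, and 11258 to 13552 probe sets with separate arrays. Without IL6 repeats 2 and 3 and interferon alpha repeat 3, 15836 probe sets had separate arrays, as fewer arrays overlap less often. There, with IL6 repeat 1 alone left, VEGFA reversed to -1.32 between IL6 and histamine, and NR0B1 to -0.61 between IL6 and untreated cells. A value called under neither setting was counted as having no direction. With the repeat number as a replicate block, 1507 probe sets were called, among them all 1488; leaving out the dimmer 50% gave 1110 and limma's treat at 1.2-fold 2009. Of 103 called named genes, 55 were called in the same direction under every alternative that tested them. These alternatives included the 2-fold and no-minimum rules and the setting with IL6 repeat 1 alone. Calls under that last setting rest on 1 IL6 array, and including it can only lower a count over every alternative. Genes left out with the dimmer 50% were not tested there. Of the uncalled ones, 11 were called under none. The mean over a gene's probe sets gives no count of probe sets, and the planned search for promoter motifs was not run. The fold minimum limits what can be seen near 1.5-fold, and signals near the lower quartile or the ceiling limit folds.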

Other observations

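More than 1 probe set measured 29 of the called named genes. A further probe set went the opposite way with a call in 0 of these, every other one was called in the same direction in 11, and no other one was called in 15. In CREM, the brightest probe set averaged 8.30 in untreated cells and differed by -1.21 between IL6 and histamine, whereas the next brightest averaged 5.56 and differed by -0.43. The second EGR1 probe set averaged 5.74 and differed by -0.22, against -1.53 for the brightest.

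Of the 1488 called probe sets, 588 had no single symbol. The largest difference towards IL6 in the whole comparison belonged to such an unnamed probe set, with 9.77, 9.71 and 9.60 after IL6, 5.91, 5.99 and 6.21 after histamine and 5.96 to 6.22 in untreated cells (difference 3.66). Towards histamine, another unnamed probe set measured 7.0, 7.17 and 7.05 after IL6 and 10.02, 9.84 and 9.87 after histamine, a difference of -2.84, with untreated arrays between them at 8.12 to 8.18.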
